A study of Citrus trifoliata with 2 samples.

Results

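SVP (Short Vegetative Phase) and APETALA 2 (AP2) are transcription factors that hold back flowering in Arabidopsis, and their transcripts were measured here in buds of trifoliate orange (Citrus trifoliata). They were represented by 4 unigenes of the 35775 in the deposited table, a unigene being an assembled transcript model without a genome position. The 4 were chosen by the name of their best Swiss-Prot hit: Unigene1579_All matched the Arabidopsis SVP protein, and Unigene12861_All, Unigene7234_All and Unigene20726_All all matched the same Arabidopsis AP2 protein. A further unigene with the AP2 hit, Unigene33328, was not among the 4 chosen, and its values are given apart. The ending _All that every unigene carries is left out in most places below. The names rest on similarity to an Arabidopsis protein, and function in trifoliate orange was not measured.

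SVP is a MADS-box protein that in Arabidopsis binds and represses the florigen gene FT and the flowering integrator SOC1, keeping the shoot apex vegetative. AP2 belongs to a subfamily of AP2-domain proteins whose messages are targets of the microRNA miR172. Besides restraining the floral transition it specifies sepals and petals and keeps AGAMOUS out of the outer whorls, so its transcripts are also part of flower development. In trees, relatives of SVP are also known from the control of bud dormancy.

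The mutant library came from precocious trifoliate orange, an early-flowering type, and the wild-type library from normal trifoliate orange. For each group, the terminal bud and the 5 buds next to it were taken from spring flushes of 2-year-old trees, at flower initiation and once the shoot tip had been dropped, with no treatment. Each group was 1 poly(A)-selected library, and the number of trees in it is not given in the sources used here. In units of 1000, the reads on unigenes numbered 10037 (mutant) and 9995 (wild type). Below, "the mutant" and "the wild type" stand for these single libraries. No spread between trees could be estimated, so every difference below is between 2 libraries, and the exact 95% intervals cover counting error only. Since whole buds were sequenced, more cells of a type and more RNA per cell cannot be told apart. Meristem tissue was represented in both libraries: unigenes matching SHOOT MERISTEMLESS had 137 reads in the mutant and 171 in the wild type (mutant over wild type 0.798-fold, interval 0.633 to 1.005), and those matching CUP-SHAPED COTYLEDON 2 had 69 and 62. Of the other meristem markers looked up, KNAT1, KNAT2 and WUSCHEL, none was a best hit. Leaf-type tissue was represented as well, with 32254 and 34379 reads on 19 chlorophyll a-b binding unigenes (0.934-fold, 0.920 to 0.949). The Rubisco small chain unigene leaned the other way at 305 and 276 reads (1.10-fold, 0.932 to 1.30, an interval that included 1).

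SVP and the AP2 group differed in opposite directions between the libraries. The SVP unigene had more reads in the mutant, whereas the AP2 unigenes summed had fewer. Within the AP2 group, both abundant unigenes were lower in the mutant, and the scarce one, Unigene20726, had more reads there. None of the 4 reached a 2-fold difference. Of all 34255 unigenes with at least 1 RPKM (reads scaled to unigene length and to the library total) in at least 1 library, 12.8% were at least 2-fold higher in the mutant and 10.1% at least 2-fold lower.

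The SVP unigene, Unigene1579_All, is 1210 bases long and matched its protein at an E-value of 4e-69. It had 152 reads in the mutant (exact Poisson interval 129 to 178) and 93 in the wild type (75.1 to 114). Per length and library total, this was 12.5 RPKM in the mutant and 7.69 in the wild type. The mutant library was 1.63-fold higher (1.25 to 2.13). Among unigenes with at least 100 reads over both libraries, the interval of this fold lay above 1 for 24.6%.

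Unigene7234_All was the most abundant AP2 unigene and the shortest, at 601 bases, with an E-value of 4e-80. It had 273 reads in the mutant and 415 in the wild type, that is, 45.3 and 69.1 RPKM. The mutant library was lower by a factor of 1.53 (1.31 to 1.79). The counting intervals of the reads were 242 to 307 (mutant) and 376 to 457 (wild type). Among unigenes with at least 100 reads, the interval of the mutant-to-wild-type fold lay below 1 for 19.3%. Unigene12861_All, of 1107 bases, had a weaker match to AP2 at 2e-31. It had 170 and 264 reads, or 15.3 RPKM in the mutant and 23.9 in the wild type. Here too the mutant library was the lower one, by a factor of 1.56 (1.28 to 1.90). The mutant-to-wild-type folds of these unigenes were alike within counting error, with a ratio of folds of 1.02 (0.793 to 1.32, conditional odds ratio with exact interval).

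Unigene20726_All was the longest AP2 unigene of the 4 chosen, at 1826 bases and an E-value of 4e-79, and the least abundant. It had 72 reads in the mutant and 50 in the wild type, or 3.93 and 2.74 RPKM. It was 1.43-fold higher in the mutant, with an interval that included 1 (0.986 to 2.10). Its fold was 2.23 times that of Unigene12861 (1.46 to 3.44) and 2.19 times that of Unigene7234 (1.45 to 3.31), so its fold differed from theirs by more than counting error. Against SVP, by contrast, the ratio of folds was 1.13 with an interval of 0.709 to 1.81 (SVP over Unigene20726). Unigene33328, the AP2 hit left out of the 4, leaned the same way at 10 reads against 6, or 0.680 RPKM against 0.410 (1.66-fold, 0.547 to 5.56). Its level was under 1 RPKM in both libraries, and its interval included 1.

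**Figure D1:**
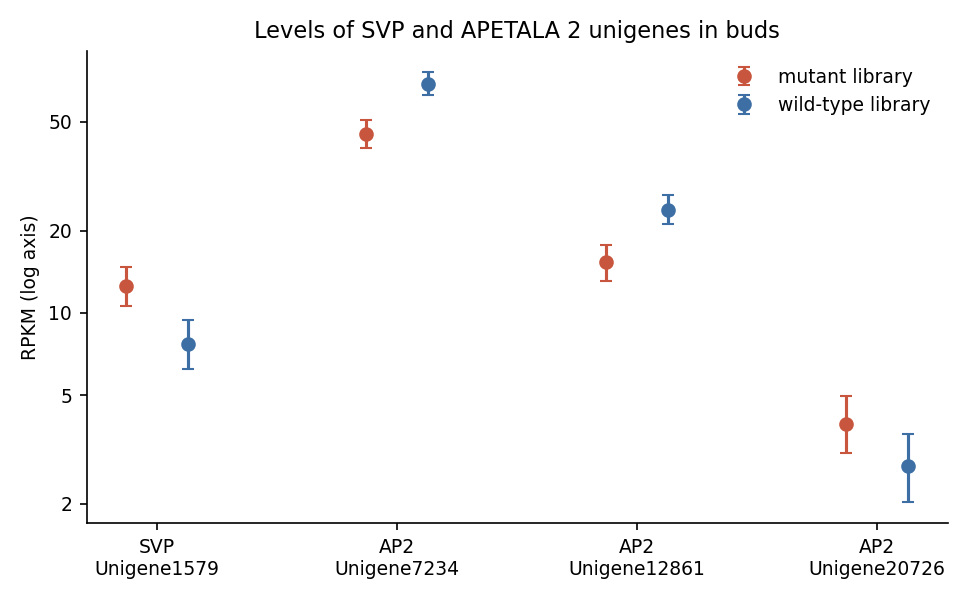
RPKM (reads scaled to unigene length and library total, log axis) of the SVP unigene and the 3 AP2 unigenes in the mutant and the wild-type library, 1 library each, with exact 95% Poisson intervals of the counts. SVP was at 12.5 in the mutant and 7.69 in the wild type, AP2 Unigene7234 and Unigene12861 were lower in the mutant, and the intervals of AP2 Unigene20726 overlapped.

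Summed over the 3 AP2 unigenes, 515 reads fell in the mutant and 729 in the wild type, a factor of 1.42 lower in the mutant (1.27 to 1.59). Adding RPKM values in place of reads gave 64.5 and 95.7, a factor of 1.48. Without Unigene20726 the factor was 1.54 (1.36 to 1.74), without Unigene7234 it was 1.303 (1.10 to 1.55), and without Unigene12861 it was 1.35 (1.18 to 1.56). With Unigene33328 added, the sums were 525 and 735 reads, a factor of 1.41 (1.26 to 1.58). The sum kept its direction whichever 1 unigene was left out, but each such sum still held Unigene7234 or Unigene12861, both abundant and lower in the mutant. The longest unigene alone leaned the other way with an interval that included 1.

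The make-up of the AP2 reads also differed between the libraries. Unigene20726 took 14.0% of them in the mutant (exact binomial interval 11.1 to 17.3) and 6.86% in the wild type (5.13 to 8.94), and these intervals did not overlap. Unigene7234 took 53.0% and 56.9%, and Unigene12861 took 33.0% and 36.2%, with overlapping intervals in both cases. Whether the 3 unigenes are pieces of 1 transcript or come from separate genes is not given in the sources used here. Per length, their levels spanned 11.5-fold in the mutant and 25.2-fold in the wild type.

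SVP made up 22.8% of the reads on the 4 unigenes in the mutant (19.7 to 26.2) and 11.3% in the wild type (9.23 to 13.7). The corresponding ratio of folds, SVP over summed AP2, was 2.31 (1.73 to 3.10), a value that does not depend on the library totals or on any scaling. It was 2.12 (1.54 to 2.92) without Unigene7234, 2.20 (1.63 to 2.99) without Unigene12861 and 2.50 (1.87 to 3.37) without Unigene20726. Both shifts contributed, since the SVP count was higher and the AP2 count lower in the mutant.

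**Figure D2:**
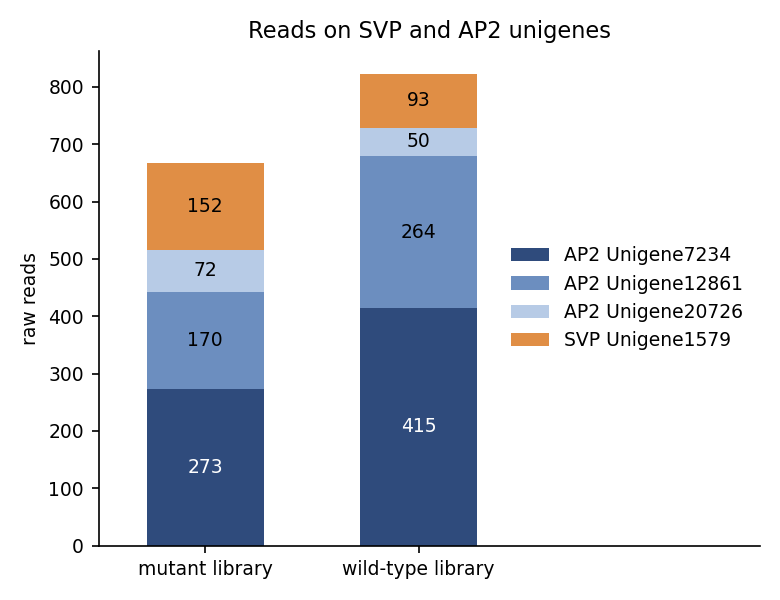
Raw reads on the SVP unigene and on the 3 AP2 unigenes, stacked, in each library (1 library per bar). In the mutant SVP had 152 reads and AP2 515, and in the wild type SVP had 93 and AP2 729.

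By level per length, the order was the same in both libraries: Unigene7234, Unigene12861, SVP and then Unigene20726. In the wild type all neighbours in this order were apart, and Unigene12861 was 3.10-fold above SVP in RPKM (2.44 to 3.97). In the mutant Unigene12861 and SVP were at similar levels, with a ratio of 1.22 whose interval included 1 (0.976 to 1.53). The gap between SVP and Unigene20726 remained at 3.19-fold in the mutant (2.39 to 4.28) and 2.81-fold in the wild type (1.97 to 4.04).

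A difference of 1.5-fold is common in this table, so the members need to be read against it. Of the 34255 unigenes that reached 1 RPKM and are called kept below, among them all 4 members, 22.1% were at least 1.5-fold higher in the mutant and 16.2% at least 1.5-fold lower. By that rule, SVP was among the higher and Unigene7234 and Unigene12861 were among the lower. Most such differences came from unigenes with few reads. Among the 16450 unigenes with at least 100 reads over both libraries, a class that includes the 4 members, 8.15% were at least 1.5-fold higher and 3.76% at least 1.5-fold lower. Counted another way, the interval of the fold lay above 1 for 19.8% of kept unigenes, SVP among them, and below 1 for 14.4%, Unigene7234 and Unigene12861 among them. In the class with at least 100 reads, these shares were larger, at 24.6% and 19.3%.

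The direction of a difference also went with the number of the unigene. Unigene numbers fell into 3 ranges, found from unigene length alone, and the median log2 ratio of mutant to wild type was 0.03 in numbers 1 to 18200, 0.90 in 18201 to 28013 and −0.74 in 28014 to 36523. SVP, Unigene7234 and Unigene12861 lie in the first range, where the median was near 0. There 9.31% of kept unigenes were at least 1.5-fold higher in the mutant and 5.23% at least 1.5-fold lower. SVP, at a log2 ratio of 0.70, had 6.85% of the unigenes of this range above it. Unigene12861, at −0.64, had 4.27% below it, and Unigene7234, at −0.61, had 4.70% below it.

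Unigene20726 lies in the second range, where 63.7% of kept unigenes were at least 1.5-fold higher in the mutant. Its log2 ratio of 0.52 was below the median of that range, and 67.7% of the unigenes there had a larger ratio. Among the 1025 unigenes of the range with at least 100 reads, whose median was 0.34, 37.3% had a larger ratio. Unigene33328 lies in the third range, where 58.9% were at least 1.5-fold lower, and leaned the other way. The part of the numbering in the higher mutant count of Unigene20726 was not tested. SVP and the AP2 unigenes of the first range differed in opposite directions within that range.

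**Figure D3:**
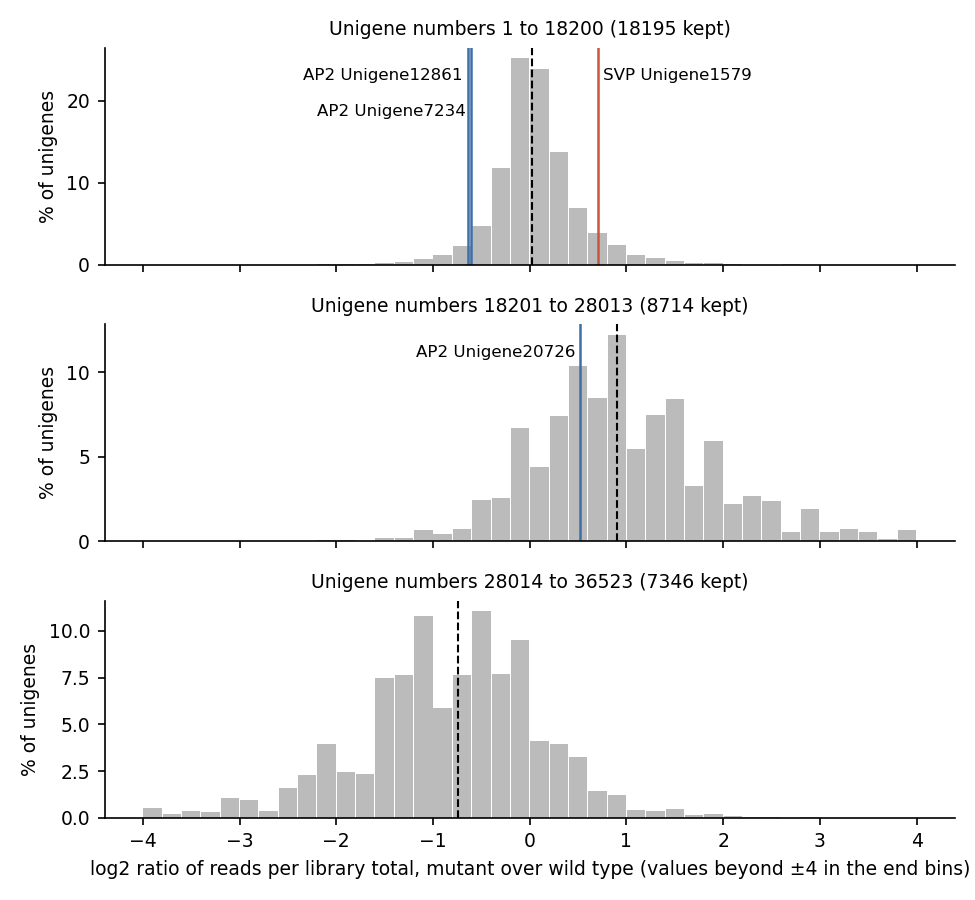
Share of kept unigenes (y axis, %) by log2 ratio of reads per library total, mutant over wild type (x axis), in the 3 ranges of unigene numbers, with the median of each range as a dashed line and the members as solid lines. SVP at 0.70 and the AP2 unigenes at −0.64 and −0.61 stand on opposite flanks of the first range, whereas AP2 Unigene20726 at 0.52 stands left of the median of its own range, 0.90.

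The closest relatives of SVP and AP2 in the first number range leaned the same way as SVP and the AP2 unigenes there. Either direction was common in that range, where 9728 of 18195 kept unigenes were higher in the mutant and 8467 lower. JOINTLESS, the tomato relative of SVP that acts in inflorescences and in the abscission zone of the pedicel, was the best hit of Unigene12495. It had 460 reads in the mutant and 397 in the wild type, or 43.8 and 37.9 RPKM (1.15-fold higher, 1.01 to 1.32). After centring on the median ratio of all kept unigenes its interval included 1 (1.12-fold, 0.974 to 1.28). The SVP fold was 1.41 times that of JOINTLESS (1.04 to 1.91). Per length, the JOINTLESS unigene was the more abundant of the pair, 3.50-fold above SVP in the mutant (2.91 to 4.23) and 4.93-fold in the wild type (3.93 to 6.25). Both together had 612 reads against 490 (1.24-fold higher, 1.10 to 1.40). No other listed relative from the SVP or FLC clades was a best hit.

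RAP2-7, also known as TOE1, is an AP2-subfamily repressor of flowering and a miR172 target in Arabidopsis. It was the best hit of 3 unigenes, all in the first number range and all lower in the mutant. Unigene9555 had 168 reads against 341, or 9.20 and 18.7 RPKM, and was lower by a factor of 2.04 (1.69 to 2.47). Unigene761 had 612 against 775 reads (45.1 and 57.3 RPKM, a factor of 1.27, 1.14 to 1.42). Unigene5031 had 711 against 824 (79.0 and 91.9 RPKM, a factor of 1.16, 1.05 to 1.29). The counting interval of each excluded 1. Over all kept unigenes, the interval of the mutant-to-wild-type fold lay below 1 for 14.4%, and for 19.3% of those with at least 100 reads. Unigene9555 stood below the other RAP2-7 unigenes, with a ratio of folds of 0.596 (0.485 to 0.729).

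Summed over RAP2-7, 1491 reads fell in the mutant and 1940 in the wild type (a factor of 1.31 lower, 1.22 to 1.40). The AP2 sum and the RAP2-7 sum differed from each other by a ratio of folds of 0.919, with an interval of 0.804 to 1.05 that included 1. Joined, the AP2 and RAP2-7 unigenes had 2006 reads against 2669, lower by a factor of 1.34 (1.26 to 1.42). The other hit of this subfamily, TOE3 (Unigene19125), had only 4 reads against 1, in the second number range. How reads shared between related copies were counted is not given in the sources used here, so the split among AP2 and RAP2-7 unigenes is uncertain.

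Among the co-repressors with which these factors work in Arabidopsis, the 5 unigenes in the first number range were well covered and nearly level. The other 5 had 127 reads or fewer over both libraries. Of all 10 kept unigenes, 2 were at least 1.5-fold higher in the mutant, beside 22.1% of all kept unigenes, and 1 was at least 1.5-fold lower, beside 16.2%, so the counts are near the background. The median log2 ratio was 0.04, beside 0.05 over all kept unigenes. The 3, named after their values were seen, lie outside the first number range: LEUNIG Unigene24422 with 85 against 42 reads (2.02-fold, 1.38 to 2.99), LEUNIG Unigene23461 with 32 against 8 (3.98-fold, 1.80 to 10.0) and SEUSS Unigene30815 with 2 against 6. In the first number range none of the 5 reached 1.5-fold in either direction, and their log2 ratios ran from −0.09 to 0.14. SEUSS, an adaptor, had 2518 against 2675 reads on Unigene12724 (0.937-fold, 0.887 to 0.990) and 1876 against 1970 on Unigene11629 (0.948-fold, 0.890 to 1.01). LEUNIG, its partner, had 1871 against 1874 reads on Unigene13153 (0.994-fold, 0.932 to 1.06). HDA19, a histone deacetylase recruited by AP2 through TOPLESS, had 2172 against 1962 on Unigene15210 (1.10-fold, 1.04 to 1.17). TOPLESS and the TOPLESS-related proteins were looked up too, and none was a best hit, so their transcripts are not covered here. All values in this group are folds of mutant over wild type.

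A list of genes downstream of SVP or AP2 held FT and SOC1, which SVP represses in Arabidopsis, and the gibberellin 20 oxidase family. AGAMOUS and TSF were looked up as well, and neither was a best hit, so the restraint of AGAMOUS by AP2 could not be followed here. Of 9 kept unigenes, 3 were at least 1.5-fold higher in the mutant, beside 22.1% of all kept unigenes, and 1 at least 1.5-fold lower, beside 16.2%. The median log2 ratio was 0.37, beside 0.05 over all kept unigenes, and 5 of the 9 lie in the second number range, where 63.7% were at least 1.5-fold higher. For the 4 in the first range the median was 0.07, and 1 was higher and 1 lower by this measure. The 3 higher ones were FT and the SOC1 unigenes Unigene3347 (22 reads against 8) and Unigene19004 (6 against 3). FT (Unigene27861) had 43 reads against 12, a fold of 3.57 with an interval of 1.85 to 7.43, and lies in the second range. SOC1 reads summed over 4 short unigenes, a sum chosen after the values were seen, were 40 against 22 (1.81-fold higher, 1.05 to 3.20). Most of this difference lay in Unigene3347. The other SOC1 unigenes had 8 against 6 reads (Unigene1570), 6 against 3 (Unigene19004) and 4 against 5 (Unigene19612), each with an interval that included 1.

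Gibberellin 20 oxidase makes active gibberellin precursors, and in Arabidopsis the family member GA20ox2 is repressed by SVP. No unigene had the Arabidopsis GA20ox2 protein as best hit, so the values below are for the family. The best covered unigene of the family, Unigene13578, matched GA20ox1 and had 53 reads against 127, or 3.85 and 9.27 RPKM. It was lower in the mutant by a factor of 2.41 (1.73 to 3.38). Unigene24126, with a rice GA20ox2 hit, had 57 against 44 reads (1.29-fold higher, 0.855 to 1.96), and Unigene23621, with a GA20ox3 hit, had 19 against 17 (1.11-fold, 0.548 to 2.28). Both intervals included 1, and both unigenes lie in the second number range. Summed over 4 unigenes, the family had 139 reads against 200, lower by a factor of 1.44 (1.16 to 1.81). This direction rested on Unigene13578, since the other members had 86 against 73 reads (1.17-fold, 0.849 to 1.63, an interval that included 1). Adding RPKM values in place of reads gave 32.5 against 33.8, or 0.962-fold.

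**Figure D4:**
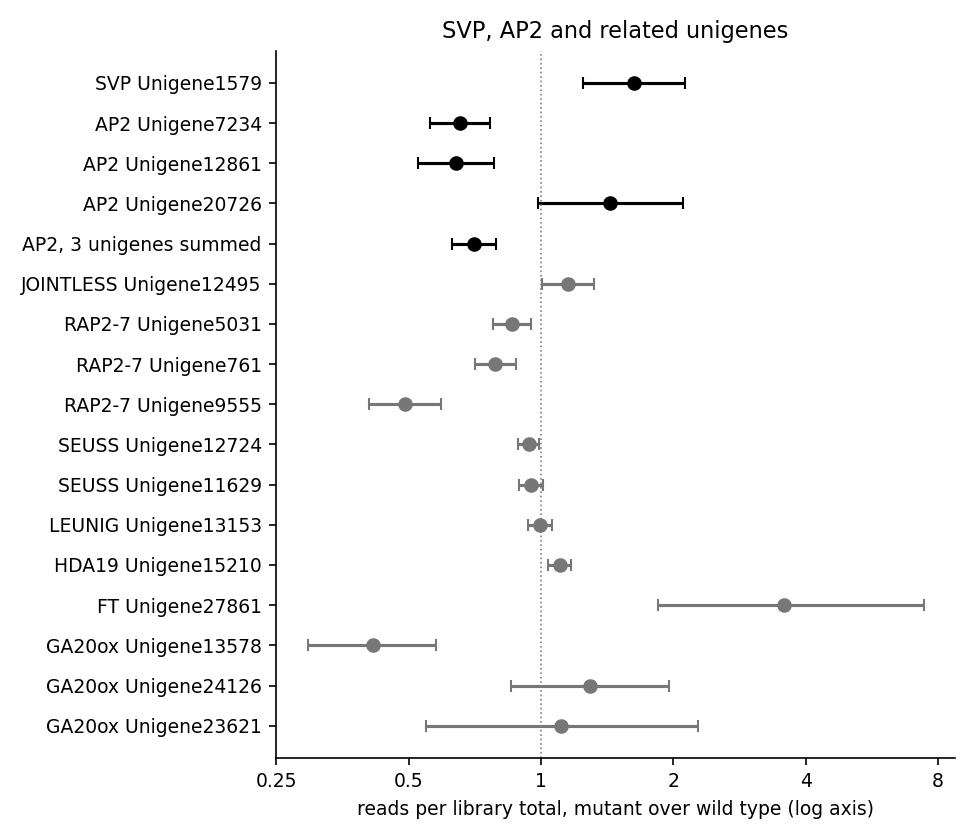
Reads per library total in the mutant over the wild-type library (log axis; the dotted line marks equality) with exact 95% binomial intervals, for the members and the AP2 sum (black) and for related unigenes (grey), 1 library per group. SVP at 1.63 lies right of the line, the AP2 sum and the 3 RAP2-7 unigenes lie left of it, and the SEUSS, LEUNIG and HDA19 unigenes lie between 0.937 and 1.10.

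Other repressors of flowering differed by less than 1.5-fold, apart from 1 unigene. Of 10 kept unigenes, 0 were at least 1.5-fold higher in the mutant, beside 22.1% of all kept unigenes, and 1 at least 1.5-fold lower, beside 16.2%. In the first number range, which holds 9 of the 10, these shares of all kept unigenes were 9.31% and 5.23%. The median log2 ratio was −0.07. The counting interval lay below 1 for 3 of the 10, beside 14.4% of all kept unigenes, and above 1 for 0, beside 19.8%. Among unigenes with at least 100 reads, which include 9 of the 10, these shares were 19.3% and 24.6%. The lower one, Unigene33611, matched RAV2, also known as TEM2, at 23 against 37 reads (lower by a factor of 1.62, 0.935 to 2.85) and lies in the third number range. EMF2, a Polycomb subunit that keeps Arabidopsis vegetative, had 769 reads against 751 (Unigene11876, 1.02-fold, 0.921 to 1.13). FRIGIDA, an activator of FLC in Arabidopsis, was the best hit of 7 unigenes, at E-values from 5e-77 to 4e-13. The most abundant were Unigene14434 with 3329 against 3611 reads (0.918-fold, 0.876 to 0.963), Unigene7707 with 3210 against 3183 (1.004-fold, 0.956 to 1.06) and Unigene2597 with 637 against 638 (0.994-fold, 0.889 to 1.11). Besides Unigene14434, the intervals below 1 were those of FRIGIDA Unigene347 with 315 against 409 reads (0.767-fold, 0.660 to 0.891) and Unigene11002 with 404 against 483 (0.833-fold, 0.728 to 0.953), both named after their values were seen.

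As a family, MADS-box unigenes leaned toward the mutant library. Apart from SVP, 21 were kept, of which 10 were at least 1.5-fold higher there, beside 22.1% of all kept unigenes, and 1 was at least 1.5-fold lower, beside 16.2%. The median log2 ratio was 0.41 beside 0.05 over all kept unigenes. Only 10 of the 21 had at least 100 reads over both libraries, and most of the higher ones had fewer. The counting interval lay above 1 for 8 of the 21, beside 19.8% of all kept unigenes, and below 1 for 1, beside 14.4%. Some of the 21 shared a best hit, such as the SOC1 unigenes, and may not be separate genes. In the first number range the count was 5 higher and 0 lower of 13, beside 9.31% and 5.23% of all kept unigenes there, with a median of 0.39 beside 0.03 for the range. The log2 ratio of SVP, 0.70, lies above the median of the family and within its range of −1.33 to 1.99. The upper end of that range, for the AP1 unigene, was computed with 3 reads in place of 0 in the wild type.

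By level alone, unigenes of other kinds lay within the counting error of the members. The 2 annotated unigenes nearest to SVP in log2(RPKM + 1) over the 2 libraries matched TTC5 (12.3 and 7.72 RPKM in the mutant and the wild-type library) and PDX1.2 (12.2 and 7.65). Those nearest to Unigene12861 matched nepenthesin-1 (15.7 and 23.2) and the yeast protein YGR017W (14.7 and 23.3). Those nearest to Unigene7234 matched the biotin carrier BCCP2 (46.2 and 70.3) and a bacterial CtpA protease (46.5 and 68.1). Those nearest to Unigene20726 matched the pentatricopeptide protein At5g12100 (3.92 and 2.76) and UNC45A (3.94 and 2.72). With 2 libraries such likeness is only one of level.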

How the data were processed

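RNA sequencing of buds gave 1 library per group, grouped by the labels' source names. Per the file headers, the authors deposited raw read counts per unigene and RPKM values, together with unigene length and Swiss-Prot best hits with E-values (both of another kind). The RPKM values equalled those recomputed from counts, lengths and header totals within 1e-04 for all unigenes. Neither the assembler nor the aligner, the counting tool or the strand setting is named in those headers or labels: not given in the sources used here.

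Folds were computed from counts over library totals, with exact 95% Clopper-Pearson intervals, and ratios of folds as conditional odds ratios. Poisson and binomial intervals are exact, and all cover counting error only, since each group was 1 library. They treat reads as independent. Reads are not independent molecules, so the intervals may be too narrow even for counting error. No test across trees and no count model was possible with 1 library per group. Where a library had 0 reads, 3 were used for ratios. A unigene was kept at RPKM of at least 1 in at least 1 library, which set aside 1520.

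The members and gene lists were chosen with earlier results of these data known. All 4 members were named. Lists with more than 8 kept unigenes are shown by the 4 with the most reads, and shorter ones whole. The MADS-box list is the exception and is described by counts. Best hits covered 18809 unigenes. Number ranges end where 400 unigenes sorted by length (rank correlation above 0.9) are followed by a drop of at least 500 bases, a method chosen after seeing the data. The fold and interval code was tested on simulated data. Python 3.11.15, pandas 2.3.3, SciPy 1.17.1, numpy 2.4.6 and matplotlib 3.10.9 were used.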

Additional observations from a re-analysis of the deposited data

How the results depend on the processing

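Over 5 alternatives (centring on the median log2 ratio, trimmed mean scaling, and RPKM with pseudocounts of 1, 0.1 and 5), log2 ratios of mutant to wild type ran from 0.46 to 0.70 for SVP, from −0.71 to −0.51 for Unigene12861, from −0.68 to −0.56 for Unigene7234 and from 0.21 to 0.50 for Unigene20726, and kept their direction. The summed AP2 log2 ratio, −0.51, became 0.52 with only the longest unigene, by construction. The number of unigenes at least 1.5-fold higher in the mutant, 7579, became 3263 at a minimum of 5 RPKM, 1340 with at least 100 reads, 4381 at 2-fold and 1694 in the first number range; the number lower, 5554, became 1648, 618, 3465 and 952. The first-range count and the AP2 sum with Unigene33328 were added after the data were seen. No paired analysis was possible because each group holds 1 library. With 122 reads over both libraries, Unigene20726 has the widest interval of the members, and its 1.43-fold difference was not detectable at this depth.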
